A study of Homo sapiens with 6 samples.

Results

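The genes that write, remove and accompany methyl marks on histones and DNA, and those that take acetyl groups off histones, were followed in MIA PaCa-2, an established line of human pancreatic cancer cells. Members were the genes whose symbols begin with KDM, KMT, SETD, HDAC, SIRT or DNMT and a digit, or with TET1, TET2 or TET3, and rows for antisense transcripts and pseudogenes were left out. The rule matched 63 of the 35993 genes in the deposited table. Of these, 62 are enzyme genes or close relatives of them, and the other is KDM7A-DT, a transcript that runs away from KDM7A and that the symbol rule keeps. RNA sequencing covered 3 libraries of untreated cells and 3 of cells exposed during 48 h to rhCYGB at 4 µM, where rhCYGB is recombinant human cytoglobin, a globin protein, made in E. coli with a histidine tag. Both groups were the same line with no engineered allele. Cells were grown with 10% fetal bovine serum and 2.5% horse serum, and the medium for the treatment held 1% fetal bovine serum, set before rhCYGB was added. The labels give neither a vehicle nor a harvest time for the untreated cells. One line was used, and nothing states whether the libraries came from separate cultures, so p-values measure only the spread between these libraries, which may be technical.

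Histone deacetylases remove acetyl groups from lysines, the zinc-dependent HDAC proteins and the NAD-dependent sirtuins by different chemistry. Lysine methyltransferases of the KMT and SETD families use S-adenosylmethionine as the methyl donor, and the KDM enzymes remove the methyl groups, the LSD type with FAD and the JmjC type with iron, oxygen and 2-oxoglutarate. DNMT1 copies DNA methylation after replication, DNMT3A and DNMT3B set new marks, and the TET enzymes oxidise 5-methylcytosine. These data are RNA levels and hold no measurement of a mark or of enzyme activity.

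Each library held between 34838399 and 42271299 counts on genes. The line's markers were high, with vimentin (VIM) at 8013 CPM in untreated and 11740 CPM in rhCYGB cells, KRT8 at 2085 and 1190 CPM, and KRT18 at 1648 and 1694 CPM. PTPRC, PECAM1 and INS, markers of blood, endothelial and beta cells, had 0 counts in all 6 libraries, and the fibroblast gene COL1A1 had 6, 10 and 6 counts in the untreated libraries and 0 in each rhCYGB library. CPM is a read count relative to its library size, here adjusted by TMM factors. Such values show neither the number of cells nor the total RNA per cell. For a single gene, fewer cells with its RNA and less of its RNA in each cell cannot be told apart.

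Tested with edgeR's quasi-likelihood test at a Benjamini-Hochberg adjusted p under 0.05, 34 of the 58 members with enough counts were higher in rhCYGB cells (58.6%, against 39.0% of all 14728 genes tested). A further 18 were lower (31.0%, against 38.6% of all genes), and 6 did not pass, namely HDAC7, HDAC9, HDAC10, SETD1B, KDM8 and KDM7A-DT. At a change of 2-fold or more, 11 members were higher (19.0%, against 12.4% of all genes) and 4 were lower (6.9%, against 14.7%). The median log2 fold change was 0.28 over the tested members and -0.01 over all genes tested. The CPM of the groups did not overlap for 50 of 58 members, and 79.5% of all genes tested had groups that did not overlap. No test compared the members with other genes, and the shares are descriptions.

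**Figure D1:**
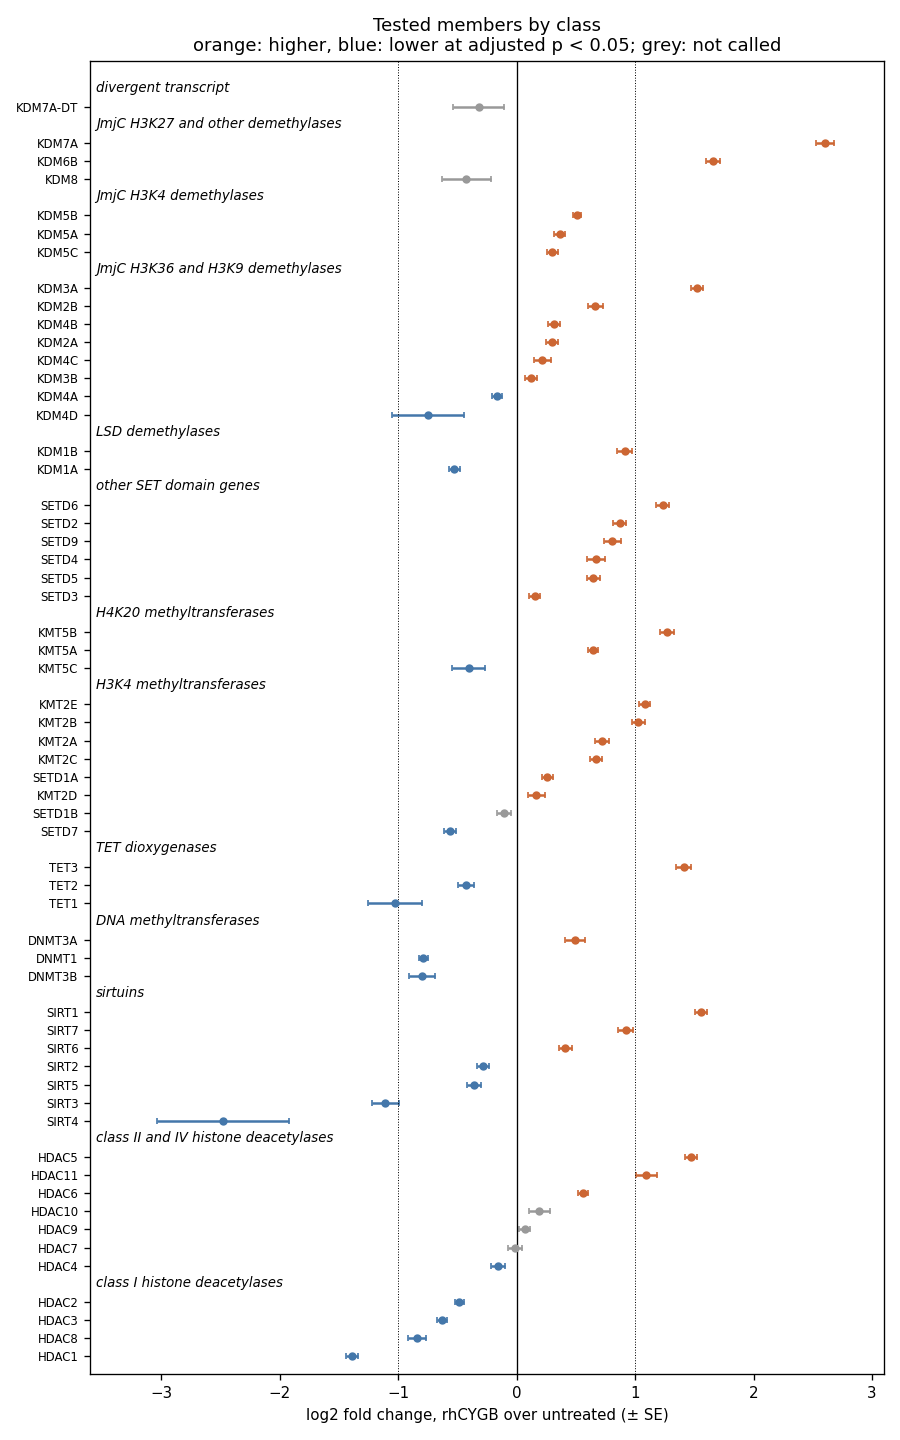
Log2 fold change of rhCYGB over untreated cells (horizontal axis) for the 58 tested members in their classes, with bars of 1 standard error and dotted lines at a 2-fold change. All 4 class I histone deacetylases lie left of 0, most methyltransferases and JmjC demethylases lie right of it, and KDM7A is farthest to the right at 2.60.

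The 5 members not tested were DNMT3L, KDM4E, KDM4F and KDM6A, each with 0 counts in all 6 libraries, and KDM5D, for which no level is given because it lies on the Y chromosome. A count of 0 allows up to 3 counts, or between 0.0669 and 0.0902 CPM depending on the library, counting error only. KDM6A, one of the enzymes that remove methyl groups from lysine 27 of histone H3, was therefore not detectable at this depth, while its relative KDM6B was measured well.

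The promoters of 4 members are printed here: DNMT1 and HDAC1, the lower members with the highest mean FPKM of their classes in untreated cells, and SIRT1 and TET3, the largest rises of theirs. Each runs from 250 bases before the annotated start to 50 after it, 5′ to 3′ on the gene's strand, taken from RefSeq on GRCh38.p14. Capitals mark the letters of searched motifs, each sought on both strands. These were CACGTG (E-box), the letters TTTGAA (CHR-like), the letters TGATGNAA (ATF4-like), the letters TGACNNNGC (ARE-like) and a set called E2F-like here, which was GGCGGGA or else TTTCGCG or else TTTGGCG. No marked stretch overlaps another.
DNMT1, chr19:10194904-10195203, minus strand: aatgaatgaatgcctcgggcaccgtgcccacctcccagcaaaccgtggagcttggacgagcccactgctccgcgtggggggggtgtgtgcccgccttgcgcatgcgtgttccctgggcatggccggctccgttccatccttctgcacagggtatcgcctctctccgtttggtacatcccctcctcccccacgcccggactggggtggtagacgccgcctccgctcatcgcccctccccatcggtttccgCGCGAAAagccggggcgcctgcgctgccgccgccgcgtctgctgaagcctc
HDAC1, chr1:32291833-32292132, plus strand: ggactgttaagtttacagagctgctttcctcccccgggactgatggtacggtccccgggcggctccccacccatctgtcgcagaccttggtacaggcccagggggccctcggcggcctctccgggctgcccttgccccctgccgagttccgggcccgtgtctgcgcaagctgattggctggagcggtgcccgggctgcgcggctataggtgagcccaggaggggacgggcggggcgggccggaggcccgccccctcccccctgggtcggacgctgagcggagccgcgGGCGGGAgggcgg
SIRT1, chr10:67884406-67884705, plus strand: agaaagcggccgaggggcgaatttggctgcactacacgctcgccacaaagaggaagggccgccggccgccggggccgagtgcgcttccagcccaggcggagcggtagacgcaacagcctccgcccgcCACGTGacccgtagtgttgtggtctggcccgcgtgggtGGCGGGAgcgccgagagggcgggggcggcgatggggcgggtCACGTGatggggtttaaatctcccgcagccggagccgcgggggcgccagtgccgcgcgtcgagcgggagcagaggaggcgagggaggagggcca
TET3, chr2:73984660-73984959, plus strand: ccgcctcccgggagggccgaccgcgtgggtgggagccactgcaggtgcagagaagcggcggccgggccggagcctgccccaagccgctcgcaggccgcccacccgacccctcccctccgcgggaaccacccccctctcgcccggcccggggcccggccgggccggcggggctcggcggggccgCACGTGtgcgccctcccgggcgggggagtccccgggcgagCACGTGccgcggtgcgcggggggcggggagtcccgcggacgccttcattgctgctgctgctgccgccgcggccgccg

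In these windows, DNMT1 held the E2F-like letters once, at bases 250 to 256, read as CGCGAAA on the printed strand. HDAC1 held GGCGGGA at bases 288 to 294. SIRT1 held GGCGGGA at bases 166 to 172 and the E-box at bases 128 to 133 and 207 to 212, and TET3 held the E-box at bases 184 to 189 and 224 to 229. Such a match is a run of letters and not a binding site.

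All 4 class I histone deacetylases were lower in rhCYGB cells, with log2 fold changes from -1.39 to -0.48 and a median of -0.74. Of all genes tested, 38.6% were lower. HDAC1 and HDAC2 are catalytic subunits of large nuclear corepressor complexes such as Sin3 and NuRD. HDAC1, at chromosome 1 from 32757684 to 32799227 in the deposited transcript table, which names no genome build, fell most. Its levels were 235, 234 and 238 CPM in the untreated libraries and 86.7, 84.5 and 98.1 CPM in the rhCYGB libraries, a log2 fold change of -1.39 ± 0.05 (SE) or 2.63-fold lower (edgeR adjusted p = 1.19e-12). The 3 untreated libraries lay within a few CPM of each other, and every rhCYGB library was far below them. HDAC8 fell from 20.8 ± 0.634 to 11.6 ± 1.01 CPM (mean ± SD, n = 3 per group), HDAC3, the catalytic subunit of the NCoR and SMRT complexes, from 107.5 ± 2.19 to 69.5 ± 1.77 CPM, and HDAC2 from 176.3 ± 4.65 to 126.1 ± 1.30 CPM. All 4 remained lower and past the threshold in each of the 16 alternative analyses.

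The levels of different genes are comparable only per length. The FPKM scale divides by transcript length and carries no TMM factors, so its changes are scaled differently from those in CPM. Over all genes tested, the median log2 fold change was -0.152 with log2(FPKM + 0.1) and -0.005 in the main test. On the FPKM scale, the summed level of the 4 class I genes went from 183.7 ± 3.08 to 81.8 ± 4.38 (mean ± SD). HDAC1 made up 56.5 ± 0.262% of that sum in untreated and 43.1 ± 2.01% in rhCYGB cells, and the share of HDAC3 was 28.3 ± 0.531% and 36.9 ± 1.09%. HDAC1 had the highest mean FPKM of the tested members in both groups, at 103.8 ± 1.77 in untreated and 35.3 ± 3.56 in rhCYGB cells, where HDAC3 came close at 30.1.

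The class II and IV deacetylases, several of which shuttle between nucleus and cytoplasm, moved differently from one another. Of 7, 3 were higher (42.9%, against 39.0% of all genes tested), 1 was lower (14.3%, against 38.6%) and 3 did not pass. HDAC5 (chromosome 17, 42154121 to 42201009), a class IIa enzyme, measured 24.4, 26.1 and 23.1 CPM in untreated and 68.2, 67.2 and 68.8 CPM in rhCYGB libraries, a rise of 1.47 ± 0.05 on the log2 scale (edgeR adjusted p = 1.39e-12). The rhCYGB libraries were nearly equal and stood well above all untreated ones. HDAC11, the sole class IV enzyme, rose from 7.41, 7.1 and 7.5 CPM to 15.9, 14.7 and 16.4 CPM (log2 1.10 ± 0.09), and HDAC6, the cytoplasmic tubulin deacetylase, rose from 61.2 ± 0.926 to 90.1 ± 2.56 CPM. HDAC4 was the only lower gene of the class, at 27.5, 28.7 and 30.0 against 24.4, 26.4 and 26.4 CPM (log2 -0.16 ± 0.06, edgeR adjusted p = 0.0236). The call for HDAC4 was lost without rhCYGB library 1 (adjusted p = 0.128), without untreated library 2 (0.0603) and without untreated library 3 (0.109). The values of HDAC7, HDAC9 and HDAC10 were -0.01, 0.07 and 0.19 on the log2 scale, and HDAC7 shares its locus with SLC48A1, which had 10.9 CPM in untreated and 15.8 CPM in rhCYGB cells.

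Of the 7 sirtuins, 3 were higher (42.9%, against 39.0% of all genes tested) and 4 were lower (57.1%, against 38.6%). The mitochondrial members SIRT3, SIRT4 and SIRT5 were all in the lower group. SIRT1 (chromosome 10, 69644414 to 69678147), the nuclear deacetylase of histones and of transcription factors such as p53, measured 38.7, 41.4 and 44.5 CPM in untreated and 125, 122 and 121 CPM in rhCYGB libraries, 2.95-fold higher (log2 1.56 ± 0.05, edgeR adjusted p = 3.8e-13). No rhCYGB library came near an untreated one. SIRT7 rose from 20.9 ± 0.512 to 39.6 ± 2.89 CPM and SIRT6 from 24.5 ± 0.935 to 32.5 ± 0.329 CPM; both are chromatin-bound nuclear enzymes.

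SIRT3, the main mitochondrial deacetylase (chromosome 11, 215030 to 236931), measured 14.8, 16.1 and 14.1 CPM in untreated and 8.13, 5.80 and 6.89 CPM in rhCYGB libraries (log2 -1.11 ± 0.11, edgeR adjusted p = 2.91e-07). Its locus overlaps RIC8A, which stood at 63.4 and 50.5 CPM. SIRT4 was read from few counts, 38, 87 and 58 in untreated and 18, 10 and 0 in rhCYGB libraries, with a log2 fold change of -2.48 ± 0.56 (edgeR adjusted p = 0.000865). The SIRT4 counts did not overlap, but leaving out 1 library moved the log2 fold change between -3.31 and -1.88, and with log2(FPKM + 1) values it was -0.85. SIRT5 fell from 25.1 ± 1.17 to 19.5 ± 0.474 CPM and SIRT2, a mostly cytoplasmic enzyme, from 48.9 ± 1.78 to 40.2 ± 0.903 CPM. SIRT2 overlaps NFKBIB, which stood at 19.2 CPM in untreated and 73.0 CPM in rhCYGB cells, and the part of the shared locus in the SIRT2 count was not tested. Summed FPKM of the sirtuins went from 72.8 ± 1.85 to 86.4 ± 3.43, the share of SIRT1 from 13.0 ± 0.922% to 29.1 ± 0.408%, and that of SIRT3 from 6.67 ± 0.260% to 2.30 ± 0.320%.

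**Figure D2:**
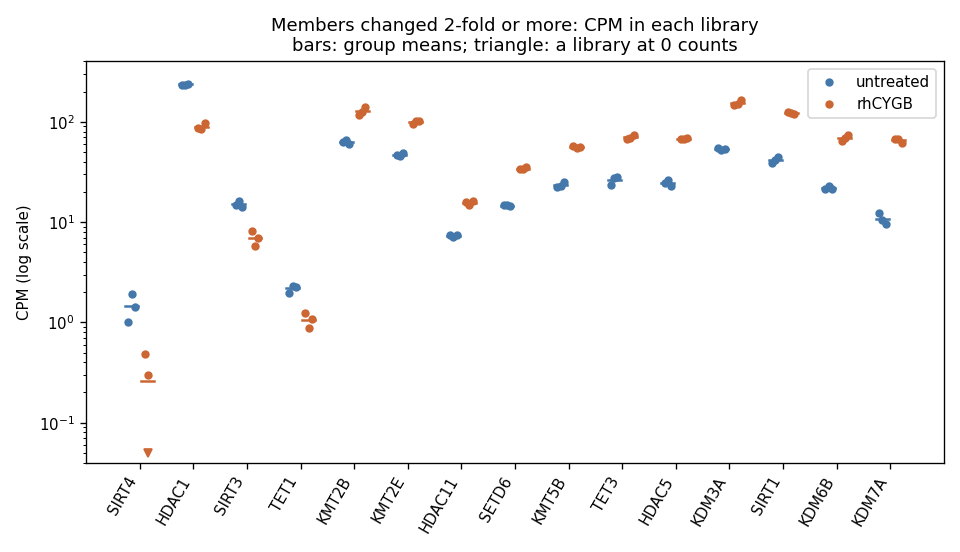
CPM of the 15 members changed 2-fold or more in each of the 6 libraries, on a log axis, with points for libraries, bars for group means and a triangle for the SIRT4 library with 0 counts. In each gene the 3 untreated and 3 rhCYGB points are apart, and SIRT4 and TET1 sit lowest, at or below 2.30 CPM.

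Among the DNA methyltransferases, the maintenance enzyme and one of the de novo enzymes were lower and the other de novo enzyme was higher. DNMT1 (chromosome 19, 10244022 to 10305629) measured 201, 201 and 206 CPM in untreated and 118, 114 and 120 CPM in rhCYGB libraries, 1.73-fold lower (log2 -0.79 ± 0.04, edgeR adjusted p = 2.94e-11). DNMT3B (chromosome 20, 31350191 to 31397162) had 10.4, 10.7 and 10.1 CPM against 6.06, 5.17 and 6.62 CPM (log2 -0.80 ± 0.11, edgeR adjusted p = 7.57e-06). DNMT3A (chromosome 2, 25450743 to 25565459) had 15.6, 15.2 and 16.6 CPM against 21.1, 25.3 and 20.2 CPM (log2 0.49 ± 0.08, edgeR adjusted p = 7.3e-05). In all 3 genes the groups were apart, and each kept its direction and its call in all 16 alternatives. None reached a 2-fold change, and DNMT3L, a catalytically inactive partner, had 0 counts.

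On the FPKM scale the DNMT genes summed to 40.4 ± 0.902 in untreated and 23.5 ± 0.442 in rhCYGB cells. DNMT1 held 89.4 ± 0.254% of that sum and then 79.4 ± 2.34%, while the DNMT3A share was 4.76 ± 0.358% and then 15.6 ± 2.98%. The DNMT3A share rests on an estimated division of reads between transcripts: its longest transcript, NR_135490, held a mean of 84.2% of the gene's counts in untreated and 47.9% in rhCYGB cells. The share was not tested, and the count of that transcript itself did not pass (log2 -0.43, adjusted p = 0.155).

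The TET genes split as well. TET3 (chromosome 2, 74212037 to 74335303) rose from 23.6, 27.5 and 28.3 CPM to 67.6, 69.0 and 74.8 CPM (log2 1.41 ± 0.07, edgeR adjusted p = 2.22e-11), so the lowest rhCYGB library was well over the highest untreated one. TET2 (chromosome 4, 106067032 to 106200960), a tumour suppressor in blood cells, fell from 21.1, 19.7 and 19.3 CPM to 14.1, 15.3 and 15.2 CPM (log2 -0.43 ± 0.07, edgeR adjusted p = 5.25e-05). TET1 (chromosome 10, 70320094 to 70454244) was barely present, at 1.99, 2.30 and 2.26 CPM against 1.24, 0.872 and 1.08 CPM (log2 -1.03 ± 0.23, edgeR adjusted p = 0.000725). With log2(FPKM + 1) values the TET1 change was -0.15 and with log2(FPKM + 0.1) -0.70, and it was 2-fold or more in 12 of 16 alternatives. Its locus contains the pseudogene COX20P1, with 3.23 and 4.54 CPM. TET3 made up 49.5 ± 3.79% of the summed TET FPKM in untreated cells, about level with TET2 at 45.5 ± 3.97%, and 78.0 ± 0.617% in rhCYGB cells, while the sum went from 4.20 ± 0.189 to 6.23 ± 0.391 FPKM.

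**Figure D3:**
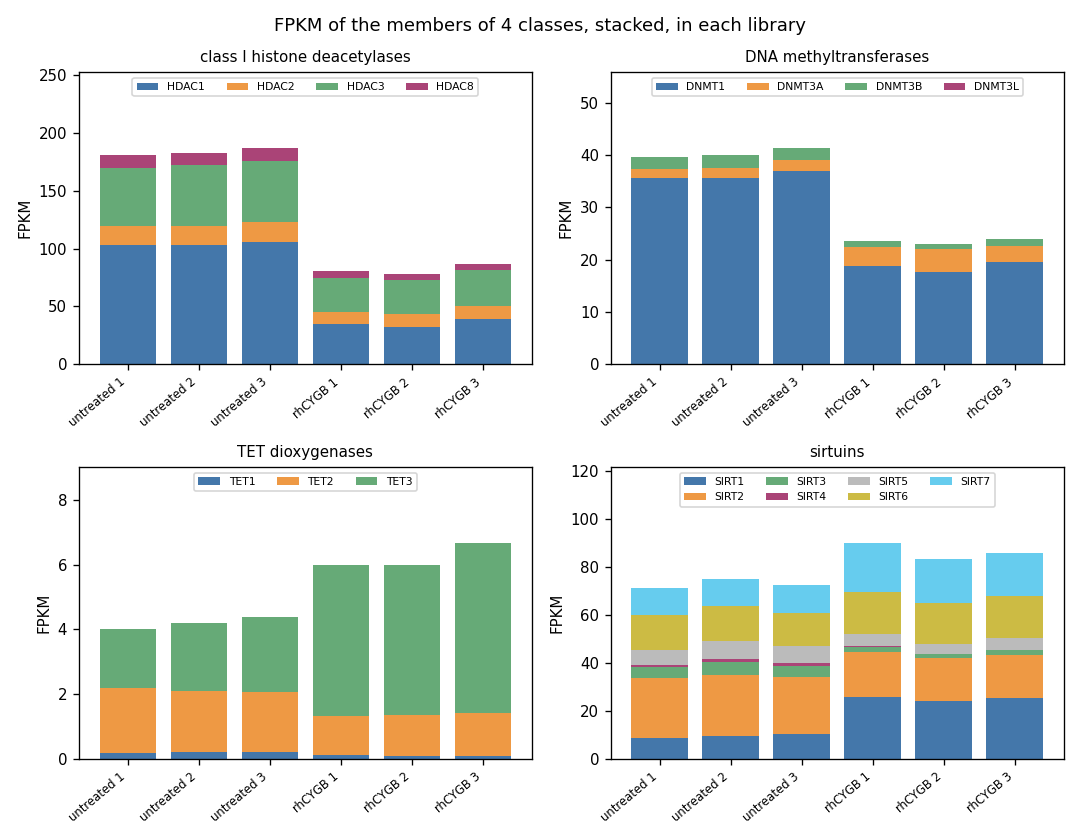
FPKM of the members of 4 classes stacked in each of the 6 libraries, from an axis starting at 0. The class I deacetylase and DNA methyltransferase bars are shorter in the 3 rhCYGB libraries, and the TET and sirtuin bars are taller, with TET3 taking 78.0% of the TET sum.

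Of the 8 genes of the class that methylates lysine 4 of histone H3, 6 were higher (75.0%, against 39.0% of all genes tested). SETD7 was lower (12.5%, against 38.6%), and SETD1B did not pass. The KMT2 genes encode very large proteins. KMT2E (chromosome 7, 104654637 to 104755466) rose from 47.1, 45.8 and 48.5 CPM to 95.5, 102 and 102 CPM (log2 1.08 ± 0.05, edgeR adjusted p = 7.77e-12), and KMT2B (chromosome 19, 36208921 to 36229781) from 63.1, 65.2 and 60.2 CPM to 118, 126 and 140 CPM (log2 1.03 ± 0.06, edgeR adjusted p = 2.22e-10). For both, each rhCYGB library was well above each untreated one. KMT2A rose from 76.0 ± 0.931 to 125.5 ± 13.1 CPM and KMT2C from 44.3 ± 0.949 to 70.5 ± 3.67 CPM, while SETD1A rose by less (log2 0.26) and KMT2D was at the edge (log2 0.17 ± 0.07, adjusted p = 0.0416). The KMT2D groups overlapped, its value was -0.001 with log2(FPKM + 0.1), and it missed the threshold in 10 of 16 alternatives, among them without untreated library 1 (0.178) or 2 (0.0813) and without rhCYGB library 2 (0.0956) or 3 (0.235). The SETD1A call was lost with total counts (0.0714) and on both log2 FPKM scales (0.157 and 0.155). KMT2E is a member by symbol, although its SET domain is regarded as inactive. SETD7, which also methylates proteins other than histones, measured 56.2, 56.8 and 55.0 CPM in untreated and 38.2, 36.8 and 38.7 CPM in rhCYGB libraries (log2 -0.56 ± 0.05, edgeR adjusted p = 2.59e-08).

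Of the enzymes for lysine 20 of histone H4, KMT5A, which places the first methyl group, and KMT5B, which adds further ones, were higher, and KMT5C, the relative of KMT5B, was lower. KMT5B (chromosome 11, 67922330 to 67981115) measured 22.2, 23.0 and 25.0 CPM in untreated and 58.1, 54.3 and 56.7 CPM in rhCYGB libraries (log2 1.27 ± 0.06, edgeR adjusted p = 1.53e-11), with no overlap. KMT5A rose from 51.9 ± 0.967 to 81.0 ± 1.11 CPM. KMT5C had 8.96, 7.72 and 7.21 CPM against 7.21, 4.96 and 5.83 CPM (log2 -0.40 ± 0.14, edgeR adjusted p = 0.0163). Its groups touched, and its call was lost without rhCYGB library 2 (adjusted p = 0.0704) or without untreated library 1 (0.0784). Per length, KMT5B went from 20.6 ± 1.26% to 35.6 ± 0.742% of the summed FPKM of the class, which itself went from 25.8 ± 0.323 to 40.3 ± 1.25. The KMT5B share, too, rests on an estimated division of reads between transcripts. Transcript NM_017635, of 5718 bases, held a mean of 57.0% of the gene's counts in untreated and 25.5% in rhCYGB cells. The share was not tested.

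All 6 other SET domain genes were higher, with log2 fold changes from 0.15 to 1.23 and a median of 0.74. The share called higher over all genes tested was 39.0%. The direction of SETD3 flipped with total counts (-0.015) and with log2 FPKM values (-0.005). SETD6 (chromosome 16, 58549383 to 58554437), whose protein methylates the NF-kB subunit RelA, rose from 14.7, 14.7 and 14.4 CPM to 33.8, 33.6 and 35.3 CPM (log2 1.23 ± 0.06, edgeR adjusted p = 2.52e-11). The SETD6 libraries of each group were within 2 CPM of each other. SETD6 overlaps CNOT1, a much more abundant gene that stood at 358.7 CPM in untreated and 273.6 CPM in rhCYGB cells. SETD2, the enzyme that trimethylates lysine 36 of histone H3, rose from 49.8 ± 2.55 to 91.1 ± 5.34 CPM, and SETD5 from 54.2 ± 0.217 to 84.9 ± 7.23 CPM. SETD9 rose from 11.95 ± 0.649 to 20.9 ± 0.508 CPM and overlaps MIER3, at 33.6 and 47.8 CPM.

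The pair of flavin-dependent demethylases went opposite ways. KDM1A (LSD1), a catalytic subunit of the CoREST complex, fell from 106, 106 and 112 CPM to 77.8, 73.8 and 73.3 CPM (log2 -0.53 ± 0.04, edgeR adjusted p = 2.04e-08). KDM1B (LSD2) rose from 26.7, 28.5 and 25.8 CPM to 54.0, 46.8 and 51.6 CPM (log2 0.91 ± 0.06, edgeR adjusted p = 2.38e-09). Neither gene's groups overlapped, and KDM1A remained the more abundant per length, at 20.7 against 9.32 FPKM in rhCYGB cells.

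The JmjC demethylases held the largest rise of all members. KDM7A (chromosome 7, 139784546 to 139876783), which removes methyl groups from lysines 9 and 27 of histone H3, measured 12.2, 10.5 and 9.54 CPM in untreated and 67.1, 67.4 and 61.2 CPM in rhCYGB libraries. That was 6.08-fold higher (log2 2.60 ± 0.08, edgeR adjusted p = 1.37e-13), with every rhCYGB library far above every untreated one. The annotated start of KDM7A-DT lies 278 bases from that of KDM7A on the other strand, and KDM7A-DT itself had 3.09 ± 0.246 CPM in untreated and 2.46 ± 0.802 CPM in rhCYGB cells (log2 -0.32 ± 0.22, adjusted p = 0.185). KDM6B (chromosome 17, 7743224 to 7758114), a demethylase of lysine 27, rose from 21.4, 23.0 and 21.3 CPM to 64.8, 69.2 and 74.0 CPM (log2 1.66 ± 0.06, edgeR adjusted p = 1.18e-12). KDM8 was low, with 2.71 ± 0.638 and 2.02 ± 0.149 CPM (adjusted p = 0.0752).

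Of the 8 tested JmjC enzymes for lysines 36 and 9 of histone H3, 6 were higher (75.0%) and 2 were lower (25.0%). Over all genes tested the shares were 39.0% and 38.6%. KDM3A (chromosome 2, 86668494 to 86719839), a lysine 9 demethylase whose RNA is known to rise in low oxygen, measured 54.7, 51.9 and 53.8 CPM in untreated and 146, 150 and 165 CPM in rhCYGB libraries (log2 1.52 ± 0.05, edgeR adjusted p = 4.36e-13), without overlap. KDM2B rose from 21.9 ± 0.605 to 34.7 ± 2.48 CPM, and KDM2A, KDM4B, KDM4C and KDM3B rose by between 0.12 and 0.31 on the log2 scale. The calls for KDM2A and KDM4B were lost on both log2 FPKM scales (limma adjusted p = 0.247 and 0.243 for KDM2A, 0.0992 and 0.0955 for KDM4B), and that for KDM4C also with total counts (0.494) and upper-quartile factors (0.308). KDM3B, the smallest rise at 137.6 ± 6.28 against 149.7 ± 8.93 CPM, had overlapping groups and missed the threshold in 10 of 16 alternatives. Its log2 fold change turned to between -0.044 and -0.021 under 4 other scalings, and its adjusted p was 0.142 without untreated library 1, 0.113 without untreated library 2, 0.0948 without rhCYGB library 2 and 0.128 without rhCYGB library 3. KDM4A fell slightly, from 81.2 ± 2.49 to 72.4 ± 1.94 CPM, and overlaps the antisense gene KDM4A-AS1, which went from 1.91 to 0.229 CPM. KDM4D had 1.26, 1.67 and 1.40 CPM against 0.996, 0.481 and 1.08 CPM (log2 -0.75 ± 0.30, edgeR adjusted p = 0.034). The KDM4D call was lost without untreated library 2 (0.125), without rhCYGB library 2 (0.122) and without untreated library 3 (0.0658).

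Of the lysine 4 demethylases, which also include KDM1A and KDM1B above, all 3 tested JmjC genes (KDM5A, KDM5B and KDM5C) were higher. Among all genes tested, 39.0% were higher. KDM5B rose from 89.0, 91.0 and 89.4 CPM to 128, 126 and 130 CPM (log2 0.51 ± 0.04, edgeR adjusted p = 5.65e-09), KDM5A from 69.4 ± 2.14 to 89.3 ± 4.38 CPM and KDM5C from 70.3 ± 3.99 to 86.5 ± 1.58 CPM. The KDM5C call was lost on both log2 FPKM scales (limma adjusted p = 0.055 and 0.0535). The median log2 fold change was 0.47 over the 8 lysine 4 methyltransferases, of which SETD7 fell, and 0.36 over these 3 JmjC genes, next to the fall of KDM1A.

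The deposited table also gives counts for 299 transcripts of the members, estimated by dividing a gene's reads among its transcripts. Of 184 tested, 21 passed as higher and 6 as lower by 2-fold or more (adjusted p under 0.05), next to 8.62% higher and 8.32% lower among all 32577 transcripts tested. In a fit with a replicate block the counts were 9 and 3, and without rhCYGB library 1 or 3 there were 15 higher. Within HDAC8, transcript NM_018486 held 61.4%, 70.5% and 75.1% of the gene's counts in the untreated libraries and 17.7%, 8.11% and 26.3% in the rhCYGB libraries, and its own count fell by 2.91 on the log2 scale (edgeR adjusted p = 0.00597). Most of the remaining HDAC8 counts were on NM_001166419, with a mean of 21.1% and then 65.8% of the gene, whose count did not pass (adjusted p = 0.0816). Within TET2, NM_017628 held 4.32%, 1.02% and 2.16% of the counts in untreated and 24.7%, 23.3% and 22.3% in rhCYGB libraries. It rose by 2.69 on the log2 scale (edgeR adjusted p = 0.0259) while the gene fell, and NM_001127208 fell by 0.86 (edgeR adjusted p = 0.00202). The NM_017628 call was lost in a fit with replicate number as block (adjusted p = 0.0734), without untreated library 3 (0.0906), and without rhCYGB library 1 (0.0698), 2 (0.0706) or 3 (0.0695).

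A short SETD7 transcript, NM_001306200, rose against its gene from 8, 7 and 4 counts to 87, 38 and 63 counts (log2 3.36, edgeR adjusted p = 0.00696), yet it still held a mean of only 4.55% of the SETD7 counts in rhCYGB cells. SETD9 transcript NM_153706 went from 60.7%, 55.4% and 67.5% to 83.6%, 85.3% and 84.8% of its gene's counts (log2 1.20, edgeR adjusted p = 0.000857). Shares that did not overlap between the groups were part of the rule that picked the HDAC8, TET2 and SETD9 transcripts, so this is no separate result. The test does not include the error of the division between transcripts.

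**Figure D4:**
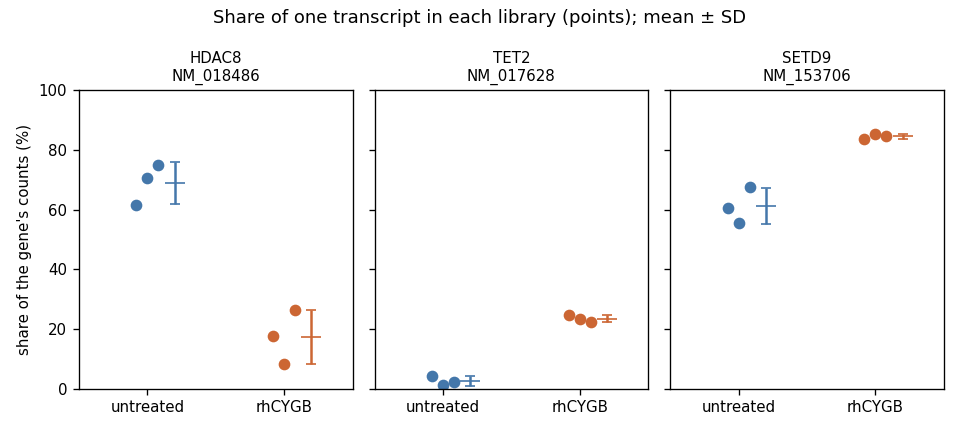
Share of a gene's counts, in percent, on 1 transcript each of HDAC8, TET2 and SETD9 in the 6 libraries, with mean ± SD beside the points (n = 3 per group). The HDAC8 transcript falls from a mean of 69.0% to 17.4%, and those of TET2 and SETD9 go to 23.4% and 84.6%.

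Promoters were matched for 58 of the 63 members; DNMT3L, HDAC5, KDM4E, SETD1B and SIRT7 had none. E-box letters were in the promoters of 7 of 55 tested members (12.7%), next to 7.43% of all 27305 promoters and 10.2% of those of tested genes. They were in 6 of the 32 promoters of members higher at the adjusted p threshold (18.8%) and in 1 of the 18 of the lower members (5.56%), TET2. Among the 10 promoters of members higher by 2-fold or more, 3 held them, namely SIRT1, TET3 and SETD6. E2F-like letters were in 16 of 55 (29.1%), close to the 29.5% of tested genes and above the 17.9% of all promoters. Of the members lower in rhCYGB cells, 3 of 18 (16.7%) held them, namely DNMT1, HDAC1 and KDM1A, and of those higher 12 of 32 (37.5%) did. CHR-like letters were in 5 of 55 tested members (9.09%, next to 9.38% of tested genes and 15.4% of all): 4 of the 18 lower members (22.2%), HDAC4, KDM4D, SIRT4 and TET2, and 1 of the 32 higher ones (3.12%), KDM2A. ARE-like letters were in 4 of 55 tested members (7.27%, next to 15.2% of tested genes and 13.6% of all), and ATF4-like letters in 0 of 55 (next to 1.63% and 3.67%). No share was tested.

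The members had long transcripts, and they were set out by length. The transcript with most counts had a median length of 4794.5 bases over the tested members and 3004.5 bases over all tested genes. In the 22 members with 6000 bases or more, 16 were higher and 5 lower with a median log2 fold change of 0.43, and of the 2291 such genes overall 1019 were higher and 853 lower with a median of 0.07. In the 18 members shorter than 3000 bases, 7 were higher and 8 lower with a median of -0.30, next to 2593 and 2813 of 7351 genes with a median of -0.04. The 18 members between had 11 higher and 5 lower with a median of 0.29, next to 2130 and 2019 of 5086 genes with a median of 0.02. The bins were chosen after the members' values were seen, and the part of length in the members' changes was not tested.

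Other chromatin genes were counted from a list of 94, of which 93 were tested, and PRMT8 had too few counts. The list holds partners of the members, but also methyltransferases and JmjC genes under other symbols, acetyltransferases and genes of the S-adenosylmethionine cycle. There, 48 were higher and 33 lower (51.6% and 35.5%, against 39.0% and 38.6% of all genes tested), and the median log2 fold change was 0.15. At 2-fold or more there were 6 in each direction (6.45% each, against 12.4% higher and 14.7% lower of all genes), so such changes were a smaller share here than over all genes. The largest fall was in UHRF1, which brings DNMT1 to newly copied DNA: 134.0, 132.8 and 145.4 CPM in untreated and 15.4, 13.4 and 14.3 CPM in rhCYGB libraries (log2 -3.26 ± 0.06, edgeR adjusted p = 9.86e-16). SUV39H1, a lysine 9 methyltransferase, fell from 38.6 ± 0.472 to 14.0 ± 0.213 CPM, and RBBP7, a histone-binding subunit shared by deacetylase complexes and PRC2, from 323.1 ± 13.0 to 122.0 ± 5.06 CPM. RBBP4, AHCYL1 and HELLS were also lower by 2-fold or more.

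The acetyltransferase KAT5 (TIP60) rose from 19.9, 17.6 and 19.1 CPM to 86.9, 85.4 and 87.9 CPM (log2 2.20 ± 0.05, edgeR adjusted p = 1.83e-14). JMJD1C, a relative of KDM3A, rose from 52.3 ± 1.87 to 159.7 ± 4.33 CPM. MAT1A had the largest fold change, log2 2.52 ± 0.46, but from 0.098 ± 0.0091 to 0.577 ± 0.031 CPM, close to the floor. UHRF2, KAT7 and CREBBP were the other genes higher by 2-fold or more. Of 16 genes listed as HDAC corepressor subunits, 12 were higher (75.0%, against 39.0% of all genes) and 3 lower (18.8%, against 38.6%). These 16 leave out RBBP7, the shared deacetylase-complex subunit above, and RBBP4. Both were listed with PRC2 and were lower by 2-fold or more. Of 8 genes of the S-adenosylmethionine cycle, 2 were higher (25.0%) and 6 lower (75.0%). No list was tested against another.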

How the data were processed

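RNA-seq libraries of untreated and rhCYGB MIA PaCa-2 cells (3 each, stranded mRNA kit) were grouped by their labels. The submitters' processing notes name FastQC 0.11.7, HISAT2 2.1.0 and StringTie 2.1.3b. The notes list the mouse build mm10, but the genes are human, and the files name no build. Their positions are not those of GRCh38, so GRCh38.p14 RefSeq was used only for promoters and the distance between annotated starts. Whether strand was used in counting is not given in the sources used here, so reads of overlapping and antisense genes cannot be told apart. Whole-number read counts were deposited by the authors, with no normalization. FPKM as deposited divides by transcript length and sequencing depth. TPM as deposited (6 columns per table, transcript levels scaled by the authors to one total in each library) went into no result.

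The main test was edgeR 4.0.16 under R 4.3.3 on the counts of all 6 libraries (filterByExpr, TMM, glmQLFit, glmQLFTest, two-sided, no block) with Benjamini-Hochberg adjustment over 14728 genes. The standard error is the absolute log2 fold change over the square root of F. The filter removed 6060 genes beyond the 15205 with 0 counts. The spread between libraries of a group was small (common dispersion 0.003, coefficient of variation 5.48%), so small changes could pass the threshold. Floors cover counting error only. DESeq2 1.42.0, limma 3.58.1 on log2(FPKM + 1) and log2(FPKM + 0.1), other scalings and filters, transcript-summed counts, the replicate block and leaving out each library were alternatives. The fits were tested on simulated counts.

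The members, gene lists and tests were chosen with earlier results of these data known. Values in every library are given for members changed 2-fold or more, all DNMT and TET genes, and the largest rise and fall of each class. The other chromatin genes have values only for the 3 largest rises and 3 largest falls. Transcripts are named where they passed the test and either moved against their gene or shifted by 20 percentage points of its counts without overlap. NM_001166419, the DNMT3A transcript NR_135490 and the KMT5B transcript NM_017635 were named after their values were seen. Genes on the Y chromosome are given no level.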

Additional observations from a re-analysis of the deposited data

How the results depend on the processing

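Of the 52 called members, 41 stayed past the threshold in all 16 alternatives, and HDAC4, KDM2A, KDM3B, KDM4B, KDM4C, KDM4D, KDM5C, KMT2D, KMT5C, SETD1A and SETD3 missed it in at least one. All 15 members changed 2-fold or more kept their adjusted p under 0.05 in each alternative, and HDAC1, HDAC5, KDM3A, KDM6B, KDM7A, KMT5B and SIRT1 also stayed at 2-fold or more in each. Scaling moved the median of all genes from -0.005 to -0.169 with total counts, -0.146 with upper-quartile factors and -0.152 with log2(FPKM + 0.1), and the members' median to 0.112, 0.135 and 0.107 (0.092 with log2(FPKM + 1)). The split of 34 higher and 18 lower members became 26 and 22 with log2(FPKM + 1) and 26 and 21 with log2(FPKM + 0.1), and that at 2-fold or more, 11 and 4, became 6 and 1 with log2(FPKM + 1) and 8 and 5 with total counts. The other chromatin genes higher by 2-fold or more numbered 3 with either log2 FPKM. KDM3B reversed to -0.044 with total counts and with log2(FPKM + 0.1), -0.042 with log2(FPKM + 1) and -0.021 with upper-quartile factors, SETD3 to -0.015 with total counts and -0.005 with either log2 FPKM, and KMT2D to -0.001 with log2(FPKM + 0.1); the cause was not tested. Same-numbered libraries did not deviate together (correlations -0.048, 0.0072 and 0.0055), so the numbers were not taken to pair the samples. With the replicate number as a block, 34 members were higher and 17 lower, 11 and 4 at 2-fold or more, KDM4D being lost (adjusted p = 0.0504), and member transcripts fell to 9 higher and 3 lower, from 21 and 6. Leaving out 1 library gave 32 to 34 higher and 16 to 19 lower members. The alternatives for named transcripts were chosen after seeing the data.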

Other observations

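Rows left out of the gene set as antisense or pseudogene were low. The KDM4A antisense gene KDM4A-AS1 had 64, 85 and 86 counts in untreated and 8, 4 and 13 counts in rhCYGB libraries (log2 -3.02, edgeR adjusted p = 8.57e-07). KMT2E-AS1, beside KMT2E, had 75, 121 and 89 counts in untreated and 48, 47 and 46 in rhCYGB libraries (log2 -0.81, edgeR adjusted p = 0.00299), while KMT2E itself rose. HDAC4-AS1 did not pass (log2 -0.72, adjusted p = 0.124). The HDAC1 pseudogene HDAC1P1 had 0, 4 and 2 counts in untreated libraries and 0 in each rhCYGB library.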
